A study of Mus musculus with 96 samples.

Results

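The dual-specificity MAP kinase phosphatases Dusp1, Dusp2, Dusp4, Dusp5, Dusp6, Dusp7, Dusp8, Dusp10, Dusp14 and Dusp16 were picked by gene name from the 48795 genes of the read-count table, and all 10 were present. RNA had been sequenced from the striatum and the cerebral cortex of 48 C57BL/6 mice aged 6 months, giving 96 libraries. The 6 genotypes were Het (Q140) KI, called Q140 here, which carries 1 knock-in allele of the huntingtin gene with a long CAG repeat; Het (Q140) KI X Pms1+/- (Q140 X Pms1+/-); Het (Q140) KI X Pms1-/- (Q140 X Pms1-/-); Pms1+/-; Pms1-/-; and wild type. Each genotype had 8 animals, 4 female and 4 male, and both tissues came from the same animal. The knock-in mouse models Huntington's disease, and Pms1 encodes a mismatch repair protein. The cross addresses whether reduced Pms1 alters the expression changes of the knock-in. The design text speaks of 16 per group, while the labels give 8 animals per genotype in each tissue. How the Pms1 allele was made, and each animal's repeat length, are not stated in the labels.

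Dual-specificity phosphatases of this family switch MAP kinases off by removing the phosphates from both the threonine and the tyrosine of the activation loop. Dusp1, Dusp2, Dusp4 and Dusp5 are nuclear enzymes whose genes are induced by growth factor and neuronal activity signals, Dusp5 being selective for ERK. Dusp6 and Dusp7 are cytoplasmic and selective for ERK, and Dusp6 is a feedback target of the ERK pathway itself. Dusp8, Dusp10 and Dusp16 act mainly on JNK and p38, and Dusp14 is a small atypical member that lacks the kinase-docking domain of the others. In the striatum ERK signalling downstream of dopamine and glutamate receptors drives activity-dependent transcription in the projection neurons.

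Library totals ran from 27993751 to 56364535 reads assigned to genes, and levels within a gene are given as CPM, the count scaled to library size. Dusp2 lay below 1 CPM on average in every group. Pms1 itself, the targeted gene, averaged 4.03 ± 0.445 CPM in Pms1-/- striata and 5.43 ± 0.343 CPM in wild-type striata (SD, n = 8 each), with a log2 fold change of -0.43 (adjusted p = 6.98e-04, edgeR quasi-likelihood test); in cortex the difference was -0.10 (adjusted p = 0.467). Whether the reads of the Pms1 gene lie in the altered part of the allele is not known here, so these levels do not check the labels. Of 144 pairs of libraries of the same tissue, genotype and sex, none agreed within counting noise. In cortex, 3 libraries (1 each of Q140, Q140 X Pms1-/- and Pms1-/-) held 574 to 710 CPM of choroid plexus and ependymal markers, and the other 45 were under 100 CPM. The first number of the animal codes was 16 or more in all Pms1-/- and Q140 X Pms1-/- animals, in 3 Q140, 1 Q140 X Pms1+/-, 0 Pms1+/- and 2 wild-type animals; what this number stands for is not given, and it goes largely with complete loss of Pms1.

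In wild-type striatum the family covered a wide range of levels. In FPKM, the authors' value scaled to gene length and library size, which allows genes to be compared, Dusp8 averaged 45.0 ± 1.91, Dusp14 39.2 ± 8.34, Dusp6 21.5 ± 2.36, Dusp7 18.0 ± 0.770 and Dusp1 14.1 ± 2.34 (SD, n = 8 each). Dusp5 averaged 4.39 ± 0.751 FPKM, Dusp4 1.94 ± 0.300, Dusp16 1.60 ± 0.111, Dusp10 1.05 ± 0.172 and Dusp2 0.256 ± 0.0858. Neighbours in this order whose animals overlapped were Dusp8 and Dusp14, Dusp6 and Dusp7, Dusp7 and Dusp1, and Dusp4 and Dusp16. In wild-type cortex the order began with Dusp6 at 42.6 ± 6.70 FPKM, Dusp8 at 42.0 ± 2.28, Dusp14 at 40.5 ± 3.76, Dusp7 at 29.8 ± 1.18 and Dusp1 at 28.5 ± 7.66. Below these came Dusp5 at 9.03 ± 1.19 FPKM, Dusp4 at 6.21 ± 0.881, Dusp10 at 2.29 ± 0.154, Dusp16 at 1.83 ± 0.194 and Dusp2 at 0.362 ± 0.0609. The 3 highest cortical members had overlapping animals in each neighbouring pair, as had Dusp7 and Dusp1, and Dusp10 and Dusp16. The JNK and p38 phosphatase Dusp8 and the atypical Dusp14 were thus among the 3 most abundant transcripts of the family in both tissues.

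**Figure D1:**
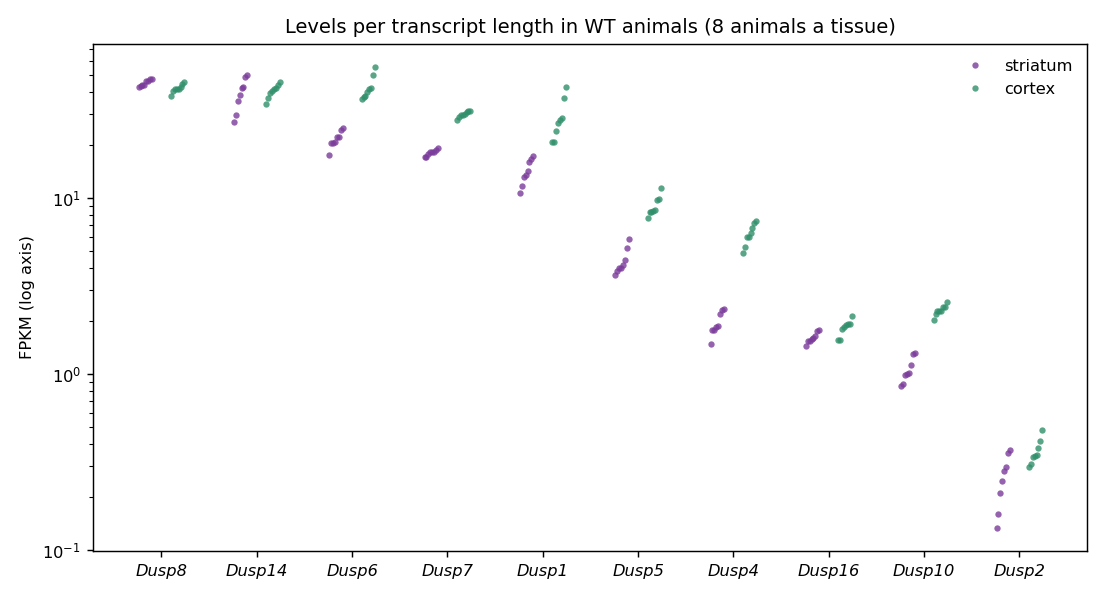
Levels of the 10 phosphatase genes in wild-type mice, in FPKM on a log axis, with striatum to the left of cortex for each gene. Points are the 8 animals. Most members lie lower in striatum than in cortex, while Dusp8 and Dusp14 lie at similar heights in both.

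Most of the family was less abundant in striatum than in cortex. Of the 10 members, 8 were lower and 1 higher in wild-type striatum, in a test where 76.0% of 19723 genes were called in either direction. The largest difference was that of Dusp4, which averaged 5.40 ± 0.809 CPM in striatum and 17.2 ± 2.50 CPM in cortex (log2 fold change -1.67, SE 0.14, adjusted p = 2.23e-18, edgeR quasi-likelihood test), and it was lower in the striatum of all 8 animals. Dusp10 (-1.12, SE 0.085), Dusp5 (-1.03), Dusp1 (-0.99, SE 0.18), Dusp6 (-0.98), Dusp7 (-0.72, SE 0.038), Dusp2 (-0.53) and Dusp16 (-0.19, SE 0.060) followed. The difference went with the tissue in 8 of 8 animals for all of these but Dusp2, which was lower in 7. Dusp8 was slightly higher in striatum (0.11, SE 0.031, adjusted p = 0.00136), in 8 of 8 animals. Dusp14 did not pass the test (-0.05, SE 0.14, adjusted p = 0.766) and was lower in striatum in 3 of 8 animals.

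In the striatum of Q140 mice 6 of the 10 phosphatases fell and none rose. The atypical member Dusp14 fell to 0.431 of the wild-type mean, with no overlap between the 2 groups, the nuclear Dusp1 and the cytoplasmic ERK phosphatase Dusp6 fell to 0.580 and 0.634 of it, and Dusp4, Dusp7 and Dusp8 fell by less. Over all 18890 genes tested, 31.3% were called, and 15.4% were called lower. The median log2 fold change of the members was -0.22, against 0.01 over all genes tested.

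Among the nuclear, inducible phosphatases, Dusp1 (chr17:26505590-26562128, minus strand, GRCm38) had 14.5, 22.3 and 38.0 CPM as lowest, median and highest values in Q140 striata, against 30.0, 38.5 and 46.9 CPM in wild-type striata. Of the 8 Q140 animals, 7 lay below every wild-type animal. This was a log2 fold change of -0.80 (SE 0.17, adjusted p = 1.66e-04, edgeR quasi-likelihood test). Dusp4 (chr8:34807297-34819894, plus strand), a close relative with a similar nuclear location, had 2.85, 3.34 and 5.69 CPM in Q140 striata, against 4.20, 5.28 and 6.53 CPM in wild-type striata. Of its Q140 animals 5 lay below all wild-type animals, with a log2 fold change of -0.51 (SE 0.15, adjusted p = 0.00661). Among animals with a first code number below 16, 5 Q140 and 6 wild type, Dusp4 was no longer called (-0.48, adjusted p = 0.0579), while the other 5 were. Dusp5, the nuclear ERK phosphatase (chr19:53529109-53542431, plus strand), averaged 9.88 ± 1.97 CPM in Q140 striata and 11.1 ± 1.85 CPM in wild-type striata and did not pass (log2 fold change -0.17, adjusted p = 0.328). Dusp2, best known from activated immune cells (chr2:127336159-127338376, plus strand), averaged 0.471 CPM in Q140 striata and 0.524 CPM in wild-type striata (-0.11, adjusted p = 0.764). The exons of Dusp1 overlap Ergic1, and those of Dusp5 and Dusp8 overlap AC137853.2 and Gm32786, on the opposite strand. The sources used here do not give the strand setting of the counting.

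The cytoplasmic ERK phosphatases fell to different degrees. Dusp6 (chr10:99263231-99267489, plus strand) had 19.8, 37.2 and 58.8 CPM in Q140 striata, against 49.6, 61.4 and 70.6 CPM in wild-type striata, and 7 of 8 Q140 animals lay below every wild-type animal. Its log2 fold change was -0.66 (SE 0.15, adjusted p = 6.68e-04, edgeR). Dusp7 (chr9:106368632-106375724, plus strand) had 44.3, 52.6 and 57.6 CPM in Q140 striata, against 57.2, 62.3 and 67.3 CPM in wild-type striata. Again 7 of 8 Q140 animals lay below all wild-type animals, with a smaller fold change (-0.26, SE 0.043, adjusted p = 2.96e-06) and a spread of 4.62 CPM (SD) in Q140 striata, against 11.4 CPM for Dusp6. In FPKM the relative drop of Dusp7 was smaller, with 15.8 ± 1.31 in Q140 striata and 18.0 ± 0.770 in wild-type striata.

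Of the JNK and p38 phosphatases, Dusp8 fell and the other two did not pass the test. Dusp8 (chr7:142079490-142095843, minus strand) had 189.7, 199.6 and 211 CPM in Q140 striata, against 209, 223 and 242 CPM in wild-type striata, with 6 of 8 Q140 animals below all wild-type animals (log2 fold change -0.16, SE 0.029, adjusted p = 1.78e-05, edgeR). In FPKM the relative drop of Dusp8 was smaller, with 42.4 ± 1.21 in Q140 striata and 45.0 ± 1.91 in wild-type striata. Dusp10 (chr1:184013302-184075636, plus strand) averaged 3.59 ± 0.442 CPM in Q140 striata and 3.28 ± 0.569 CPM in wild-type striata (0.14, adjusted p = 0.329). Dusp16 (chr6:134715468-134792625, minus strand) averaged 13.7 ± 1.32 CPM in Q140 striata and 12.7 ± 0.897 CPM in wild-type striata (0.11, SE 0.052, adjusted p = 0.116), but was called higher with library totals as the sole scaling (0.18, adjusted p = 0.0049) and by limma on log2 FPKM (0.17). The atypical Dusp14 (chr11:84048041-84069261, minus strand) had 21.6, 33.7 and 50.0 CPM in Q140 striata, against 52.6, 80.6 and 99.6 CPM in wild-type striata. Its groups did not overlap, and its log2 fold change of -1.20 (SE 0.19, adjusted p = 2.68e-06) was the largest of the family. All 6 calls held in each of the 16 fits that left out 1 of the 16 animals of this comparison.

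**Figure D2:**
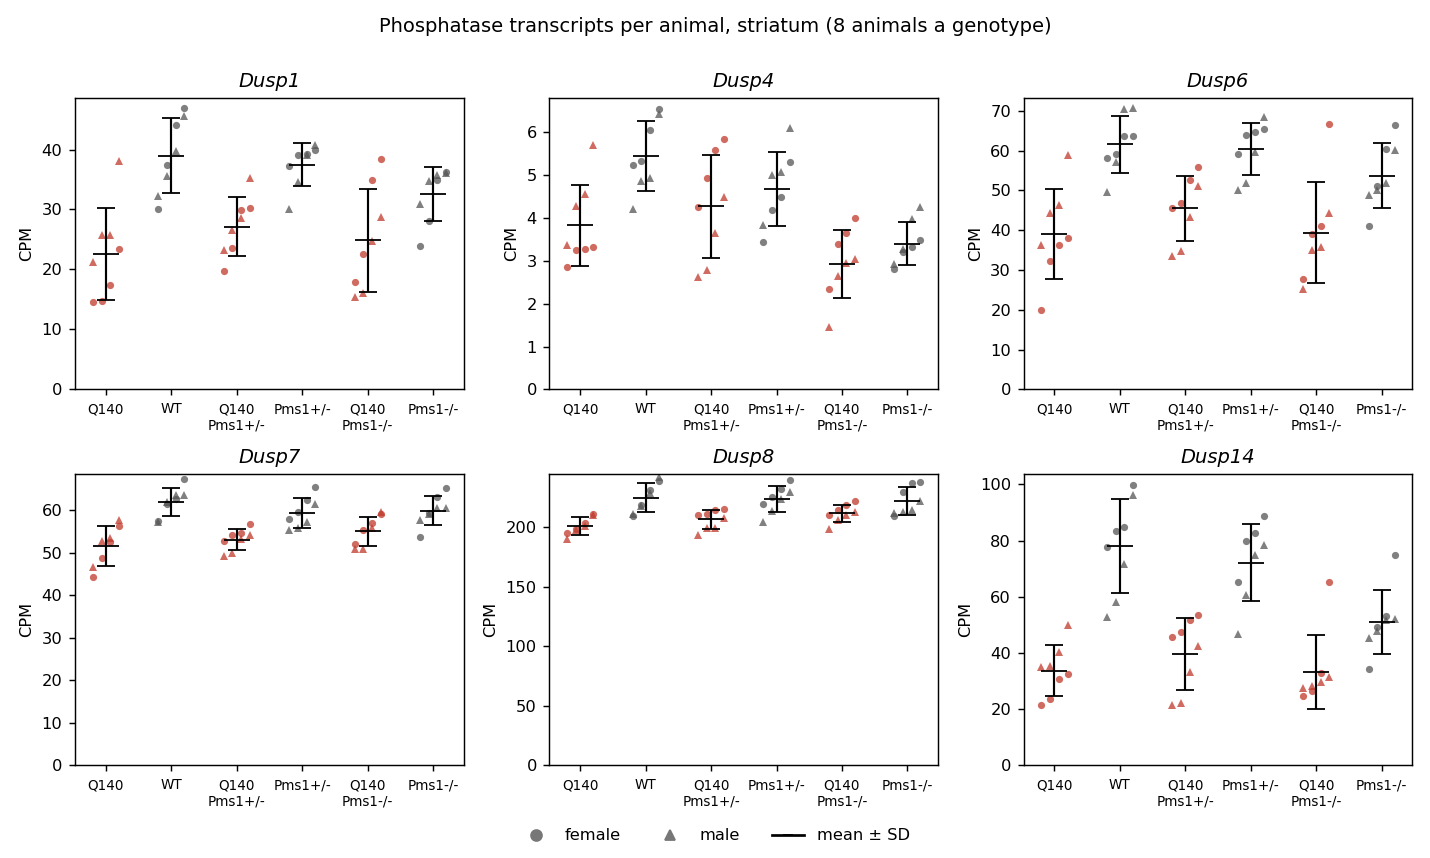
Striatal levels in CPM of Dusp1, Dusp4, Dusp6, Dusp7, Dusp8 and Dusp14 in each animal (circles female, triangles male), with mean ± SD for the 6 genotypes, each Q140 group left of its own Pms1 background. For Dusp14 the Q140 and wild-type animals do not overlap, and 1 Q140 X Pms1-/- animal stands at 65.3 CPM above the other 7.

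Fits of each sex alone, 4 against 4 animals, gave larger drops in females for some members, but no difference between the sexes passed the test. In females alone, the log2 fold change was -1.67 for Dusp14, -1.19 for Dusp1, -0.95 for Dusp6 and -0.87 for Dusp4, and all 6 members were called. In males alone it was -0.80 for Dusp14 (adjusted p = 0.0157, edgeR), -0.47 for Dusp1 (adjusted p = 0.121), -0.42 for Dusp6 (adjusted p = 0.124) and -0.19 for Dusp4 (adjusted p = 0.591); Dusp7, Dusp8 and Dusp14 were the 3 called. The share of all genes called in each single-sex fit is not given here, so these counts do not compare the sexes. The test of the female minus male difference called 0 of 10 members with edgeR and 0 with DESeq2, as it called 0% of all genes. Unadjusted, 3 members passed in edgeR's test of this difference, Dusp4 (-0.68), Dusp14 (-0.87) and Dusp1 (-0.72). Their adjusted p-values ran from 0.747 to 0.755.

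Other genes of the pathway gave the setting of these changes in the same comparison, where 31.3% of all genes were called. The count of MAP kinase kinases below is near that share. Among the kinases, the JNK gene Mapk10 was higher (0.09, adjusted p = 0.0124, edgeR) and the JNK gene Mapk8 lower (-0.07, adjusted p = 0.0241), and of 7 MAP kinase kinases 0 rose and Map2k2 (-0.10) and Map2k7 (-0.09) fell. Of 12 genes for Ras activators, Ras and Raf, 3 rose and 4 fell, among them Rasgrp2, a Ras-family exchange factor, with 253 to 338 CPM in Q140 striata and 383 to 445 CPM in wild-type striata (-0.48, adjusted p = 1.1e-08, edgeR), and the Ras gene Hras, with 80.1 to 92.3 CPM in Q140 striata and 110 to 129 CPM in wild-type striata (-0.48, adjusted p = 1.36e-15). The rises in that list were at most 0.09, for Sos2. Other phosphatases that act on MAP kinases, 9 tested, comprised 1 that rose, Ptprr (0.24), and 5 that fell. The tyrosine phosphatase Ptpn7 had 4.95 to 7.62 CPM in Q140 striata and 11.8 to 14.2 CPM in wild-type striata (-1.02, adjusted p = 2.55e-12), the atypical phosphatase Dusp18 fell by 0.57, and Ptpn5, the striatum-enriched phosphatase STEP, averaged 710 ± 50.0 CPM in Q140 striata and 962 ± 31.7 CPM in wild-type striata (-0.44, adjusted p = 3.03e-11).

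Feedback inhibitors and transcriptional targets of the pathway were among the genes that fell, in a test where 15.4% of all genes were called lower. Of 7 Sprouty and Spred genes, inhibitors of Ras to ERK signalling, 4 fell and 0 rose, led by Spry2 (-0.59, adjusted p = 4.58e-08, edgeR) and Spry4 (-0.55, adjusted p = 6.13e-04), with a list median of -0.22. Of 3 ETS factors of the PEA3 family, Etv5 fell (-0.32, adjusted p = 0.0137). Of 12 immediate early genes, 8 fell and 0 rose, with a median of -0.74 against 0.01 over all genes tested. The zinc-finger factor Egr2 fell by 1.84 and the nuclear receptor Nr4a1 by 1.07 on the log2 scale, and Egr1 averaged 310 ± 103 CPM in Q140 striata and 572 ± 90.1 CPM in wild-type striata (-0.88, adjusted p = 1.11e-04). Fos did not pass, with 16.5 ± 12.5 CPM in Q140 striata and 21.9 ± 6.42 CPM in wild-type striata (-0.48, adjusted p = 0.327).

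Most markers of the striatal projection neurons were also lower in Q140 striata, where 15.4% of all genes were called lower. The summed level of 10 markers of medium spiny neurons was 7912 to 9095 CPM in Q140 striata and 12588 to 14236 CPM in wild-type striata; 9 of the 10 fell and 1, Tac1, rose, and none was at 0 in any library of either group. Of 6 microglial markers 5 fell (summed level 335 to 389 CPM in Q140 striata and 385 to 419 CPM in wild-type striata), and of 5 endothelial markers 3 fell. Markers of cortical glutamatergic neurons summed to 748 to 952 CPM in Q140 striata and 978 to 1190 CPM in wild-type striata, without overlap; within that list Nrgn fell (-0.32) and Cux2 rose (0.21). Nrgn made up most of that sum, with 835 ± 69.0 CPM in Q140 striata and 1040.3 ± 73.3 CPM in wild-type striata, while Slc17a7, the vesicular glutamate transporter of those neurons, averaged 3.74 CPM in Q140 striata and 3.95 CPM in wild-type striata (-0.08, adjusted p = 0.918, edgeR). Whether fewer cells of a type or less RNA per cell lies behind a lower level in bulk tissue cannot be told apart, and the part of any of these cell types in the phosphatase values was not tested.

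The drop in the Q140 striatum recurred with 1 copy of Pms1 missing. In Q140 X Pms1+/- striata 5 of the 6 phosphatases, all but Dusp4, were lower than in Pms1+/- striata, and Dusp16 was higher, where 24.9% of all genes were called. Dusp14 had 21.3, 44.2 and 53.7 CPM in Q140 X Pms1+/- striata, against 46.7, 76.6 and 88.6 CPM in Pms1+/- striata (log2 fold change -0.87, adjusted p = 4.75e-04, edgeR). Of its Q140 X Pms1+/- animals 5 lay below all Pms1+/- animals. Dusp1 (-0.47, adjusted p = 0.0331), Dusp6 (-0.41, adjusted p = 0.0434), Dusp7 (-0.16, adjusted p = 0.00466) and Dusp8 (-0.11, adjusted p = 0.00262) were also called. With library totals as the sole scaling 3 members were called in place of 6, and limma on log2 FPKM lost Dusp6 (adjusted p = 0.0539) and Dusp8 (0.0514). Dusp16 had 12.9 to 16.2 CPM in Q140 X Pms1+/- striata and 11.8 to 13.5 CPM in Pms1+/- striata (0.16, adjusted p = 0.0226), and 7 of 8 Q140 X Pms1+/- animals lay above all Pms1+/- animals.

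Against the Pms1-/- background 2 members were lower in Q140 X Pms1-/- striata, Dusp14 and Dusp10, where 11.1% of all genes were called. Dusp14 had 24.7, 28.8 and 65.3 CPM in Q140 X Pms1-/- striata, against 34.1, 50.6 and 74.8 CPM in Pms1-/- striata (-0.62, SE 0.19, adjusted p = 0.0288, edgeR). Of the 8 Q140 X Pms1-/- animals, 7 lay below every Pms1-/- animal, and the other was the 27-3 female. Dusp10, a JNK and p38 phosphatase, had 2.39, 2.76 and 3.83 CPM in Q140 X Pms1-/- striata, against 2.88, 3.77 and 4.31 CPM in Pms1-/- striata (-0.32, SE 0.11, adjusted p = 0.0448). Dusp6 (-0.45, adjusted p = 0.0515), Dusp7 (-0.12, adjusted p = 0.0613) and Dusp1 (-0.39, adjusted p = 0.133) did not pass. When 1 animal was left out at a time the count ran from 0 to 4, with Dusp14 called in 11 of 16 fits and Dusp10 in 6, and without the filter on low counts neither was called. With the first code number as a random block in limma, Dusp10 was not called (-0.32, adjusted p = 0.0542) and Dusp6 was (-0.47, adjusted p = 0.0489), and limma on log2 FPKM likewise gave Dusp6 (adjusted p = 0.0316) in place of Dusp10 (0.0594). Without the 27-3 female, Dusp1, Dusp6, Dusp7 and Dusp14 were called and Dusp10 was not.

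Q140 X Pms1-/- striata set directly against Q140 striata, libraries that also enter the comparison with wild type, showed 0 of 10 members called by edgeR, with 7.10% of all genes called. Of the 10, 4 members had an unadjusted p under 0.05, DESeq2 called 0, and limma on log2 FPKM called 1, Dusp10. Dusp14 had 24.7, 28.8 and 65.3 CPM in Q140 X Pms1-/- striata and 21.6, 33.7 and 50.0 CPM in Q140 striata (-0.03, SE 0.19, adjusted p = 0.956). Dusp6 averaged 39.4 ± 12.8 CPM in Q140 X Pms1-/- striata and 39.0 ± 11.4 CPM in Q140 striata (0.01, adjusted p = 0.975). Dusp1 averaged 24.8 ± 8.64 CPM in Q140 X Pms1-/- striata and 22.6 ± 7.71 CPM in Q140 striata (0.15, adjusted p = 0.694). Dusp8 (0.07, adjusted p = 0.122) and Dusp7 (0.09, adjusted p = 0.223) were nominally higher, Dusp10 (-0.30, adjusted p = 0.0846) and Dusp4 (-0.37, adjusted p = 0.173) nominally lower. In the same comparison 3 of the 9 other phosphatases tested rose, Ptpn7 (0.58, adjusted p = 3.83e-05), Ptpn5 (0.22, adjusted p = 4.59e-04) and Dusp18 (0.16, adjusted p = 0.0364), as did Hras (0.27) and Rasgrp2 (0.30), while 0 of 12 immediate early genes and 0 of 7 Sprouty and Spred genes were called by edgeR. The medium spiny neuron marker sum was 9350 to 11238 CPM in Q140 X Pms1-/- striata and 7912 to 9095 CPM in Q140 striata. Q140 X Pms1+/- against Q140 striata gave 0 members called by edgeR and 0 at an unadjusted p under 0.05, with 0% of all genes called.

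The difference of the Q140 effect between backgrounds was tested as an interaction. For Pms1-/- minus Pms1 wild type, edgeR called 0 members and 5.05% of all genes. Here 4 members had an unadjusted p under 0.05: Dusp10 (-0.46, adjusted p = 0.0609), Dusp14 (0.58, adjusted p = 0.223), Dusp7 (0.14, adjusted p = 0.179) and Dusp8 (0.09, adjusted p = 0.196), positive values being a smaller drop without Pms1. Each drop is taken against its own background, and mean Dusp14 was 51.1 CPM in Pms1-/- and 78.1 CPM in wild-type striata. With the Q140 allele its mean was 33.3 CPM in Q140 X Pms1-/- and 33.6 CPM in Q140 striata. DESeq2 and limma each called 1, Dusp10 (adjusted p = 0.0387 and 0.0357). For Pms1+/- minus Pms1 wild type, 0 members were called, 0 had an unadjusted p under 0.05, and 0% of all genes were called by edgeR. Averaged over the 3 backgrounds, the Q140 effect in striatum called the same 6 members lower and Dusp16 higher (0.10, adjusted p = 0.0042), with 42.5% of all genes called; the averaged log2 fold change was -0.90 for Dusp14, -0.55 for Dusp1, -0.51 for Dusp6, -0.29 for Dusp4, -0.18 for Dusp7 and -0.11 for Dusp8.

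**Figure D3:**
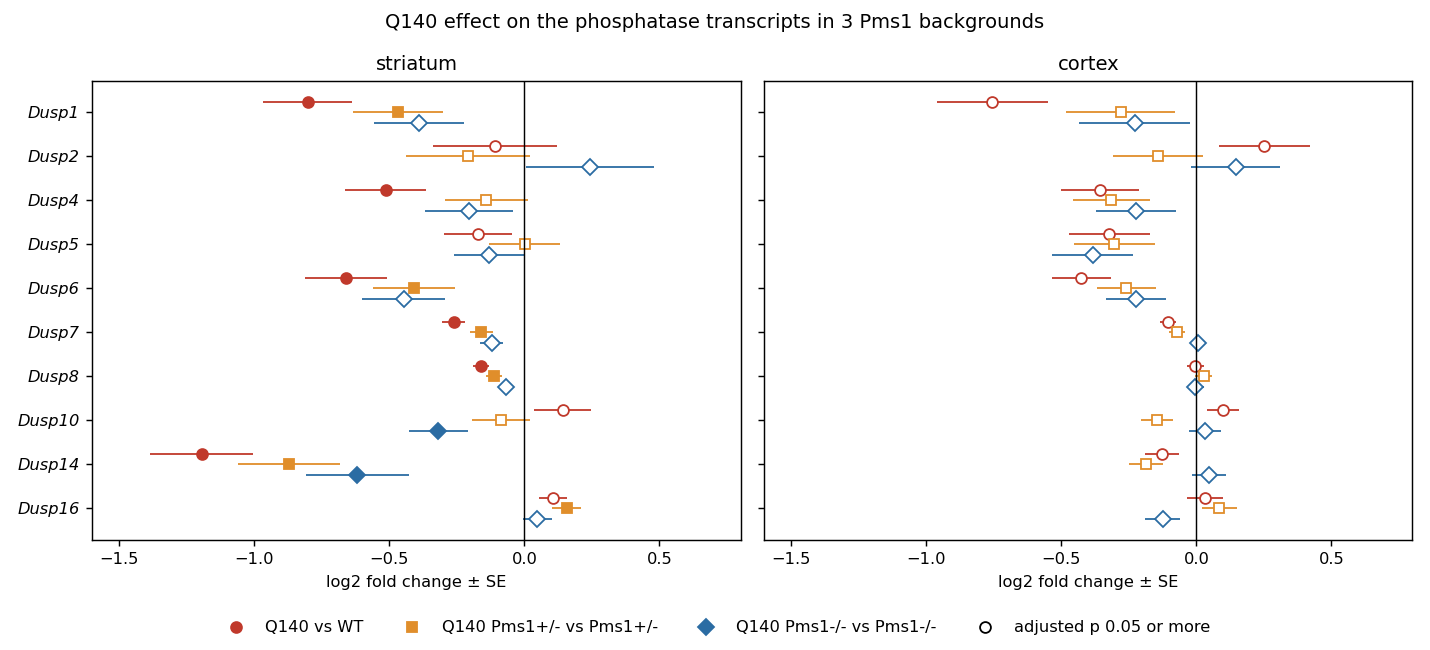
Log2 fold changes (± SE) of the 10 phosphatases with the Q140 allele in each Pms1 background, striatum in one panel and cortex in the other; filled points had an adjusted p under 0.05. Striatal Dusp14 lies lowest, at -1.20 with wild-type Pms1, -0.87 in Pms1+/- and -0.62 in Pms1-/-, and no single-background value in cortex passed. The references of striatal Dusp14 differed, with means of 78.1 CPM in wild-type and 51.1 CPM in Pms1-/- striata. Its means with the Q140 allele were 33.6 CPM in Q140 and 33.3 CPM in Q140 X Pms1-/- striata.

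Without the knock-in, 2 striatal members were also lower in Pms1-/- mice, whose first code numbers were all 16 or more. In Pms1-/- striata, 7.91% of all genes and 2 of 10 members, Dusp4 and Dusp14, differed from wild type. Dusp4 had 2.80, 3.29 and 4.25 CPM in Pms1-/- striata, against 4.20, 5.28 and 6.53 CPM in wild-type striata, 7 of 8 Pms1-/- animals being below every wild-type animal (-0.68, SE 0.15, adjusted p = 0.00514, edgeR). Dusp14 had 34.1, 50.6 and 74.8 CPM in Pms1-/- striata, against 52.6, 80.6 and 99.6 CPM in wild-type striata (-0.61, SE 0.19, adjusted p = 0.0351), with 6 of 8 Pms1-/- animals below all wild-type animals. Dusp4 stayed called in all 16 fits without 1 animal and Dusp14 in 9 of 16. With a term for a first code number of 16 or more, Dusp4 was called (-0.72, adjusted p = 0.0285) and Dusp14 was not (-0.69, adjusted p = 0.0952). The 12 immediate early genes held 0 calls in this comparison. With 1 copy of Pms1 missing, Pms1+/- against wild type, 0 members were called by edgeR, 0 had an unadjusted p under 0.05, and 0% of all genes were called.

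In the cortex of Q140 mice no member passed the test, and the largest differences were those of Dusp1 and Dusp6. Only 0.0428% of 18711 genes were called there; edgeR, DESeq2 and limma each called 0 members, and 6 had an unadjusted p under 0.05. Dusp1 had 25.1, 45.3 and 70.6 CPM in Q140 cortices, against 56.1, 73.5 and 115 CPM in wild-type cortices (-0.76, adjusted p = 0.27, edgeR). Of its 8 Q140 animals, 6 lay below all wild-type animals. Dusp6 had 63.3, 89.4 and 112 CPM in Q140 cortices, against 102, 114 and 155 CPM in wild-type cortices (-0.43, adjusted p = 0.247), with 7 of 8 Q140 animals below all wild-type animals. Dusp4 (-0.36, adjusted p = 0.544), Dusp5 (-0.32, adjusted p = 0.646), Dusp14 (-0.13, adjusted p = 0.677) and Dusp7 (-0.11, adjusted p = 0.293) were the other four. The cortical immediate early genes had a median of -0.60 with 0 of 12 called. Averaged over the 3 Pms1 backgrounds, 1.73% of genes were called, and among them Dusp6 (-0.30, SE 0.063, adjusted p = 0.00912) and the nuclear ERK phosphatase Dusp5 (-0.34, SE 0.087, adjusted p = 0.0341) were lower with the Q140 allele, while Dusp1 (-0.42, adjusted p = 0.0507) and Dusp4 (-0.30, adjusted p = 0.0513) missed the threshold.

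Within the other cortical comparisons that carry the Q140 allele no member was called by edgeR. Q140 X Pms1+/- against Pms1+/- gave 0 members with 0.112% of genes called and 5 members at an unadjusted p under 0.05; Q140 X Pms1-/- against Pms1-/- gave 0 members with 0.0428% of genes called and 2 at that level. Q140 X Pms1-/- against Q140 gave 0 members with 0.0107% of genes called and 3 at that level, and DESeq2 called 1 of them, Dusp14 (-0.22, adjusted p = 0.0441). For Q140 X Pms1+/- against Q140, 0% of genes and 0 members were called and 2 had an unadjusted p under 0.05. Both cortical interactions called 0 members and 0% of genes, with 1 member each at that level. Apart from the DESeq2 call of Dusp14, DESeq2 and limma on log2 FPKM also called 0 members in these cortical comparisons, and likewise in the striatal comparisons of Q140 X Pms1+/- with Q140 and of Pms1+/- with wild type and in the Pms1+/- interaction.

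Without the knock-in, some phosphatases were also lower in the cortex of Pms1-/- mice than of wild type. This genotype goes largely with a first code number of 16 or more. In Pms1-/- cortices 4 members were lower than in wild-type cortices, where 9.58% of genes were called. Dusp14 had 54.5, 59.2 and 65.7 CPM in Pms1-/- cortices, against 66.1, 80.1 and 89.0 CPM in wild-type cortices, with no overlap (-0.39, SE 0.063, adjusted p = 3e-04, edgeR). Dusp7 had 85.5, 91.0 and 101 CPM in Pms1-/- cortices, against 91.6, 99.5 and 106 CPM in wild-type cortices (-0.13, SE 0.031, adjusted p = 0.00721). Dusp4 had 9.01, 12.1 and 15.1 CPM in Pms1-/- cortices, against 13.4, 16.9 and 20.3 CPM in wild-type cortices (-0.49, SE 0.14, adjusted p = 0.025). Dusp6 had 63.9, 92.8 and 112 CPM in Pms1-/- cortices, against 102, 114 and 155 CPM in wild-type cortices (-0.36, SE 0.11, adjusted p = 0.0324). With a term for a first code number of 16 or more, Dusp14 alone stayed called (-0.38, adjusted p = 0.0114), with fold changes of -0.42 for Dusp4 (adjusted p = 0.217), -0.32 for Dusp6 (adjusted p = 0.215) and -0.09 for Dusp7 (adjusted p = 0.216). Dusp6 was the call lost without the 3 libraries with choroid plexus markers (-0.35, adjusted p = 0.0585), with the first code number as a random block (adjusted p = 0.0558), without the filter on low counts (adjusted p = 0.0524) and with those groups alone in the fit (adjusted p = 0.0715). In Pms1+/- cortices 0 members were called by edgeR, DESeq2 or limma, 0 had an unadjusted p under 0.05, and 0% of genes were called.

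**Figure D4:**
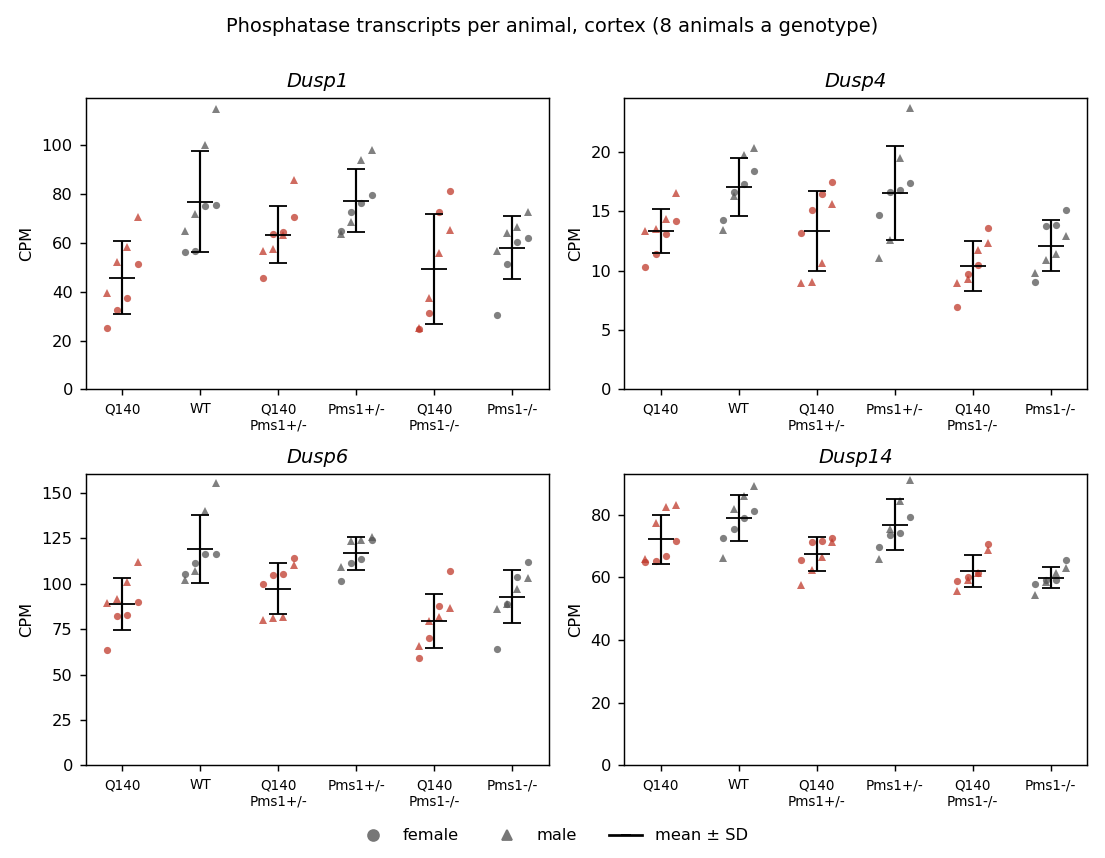
Cortical levels in CPM of Dusp1, Dusp4, Dusp6 and Dusp14 in each animal (circles female, triangles male), with mean ± SD for the 6 genotypes. Dusp14 in Pms1-/- cortices, at 54.5 to 65.7 CPM, lies wholly below wild type, at 66.1 to 89.0 CPM.

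For 3 members the Q140 effect differed between the tissues when the difference itself was tested, and 13.3% of 19723 genes were called. That fit took both tissues of an animal as independent libraries. The striatal drop was larger for Dusp14 (striatum minus cortex -1.08, SE 0.20, adjusted p = 1.76e-05, edgeR), Dusp8 (-0.17, SE 0.044, adjusted p = 0.00319) and Dusp7 (-0.17, SE 0.054, adjusted p = 0.0199). For Dusp1, at 0.580 of the wild-type mean in Q140 striata and 0.596 of it in Q140 cortices, the difference was -0.06 (SE 0.26, adjusted p = 0.933). For Dusp6 the difference was -0.25 (adjusted p = 0.466) and was called when the animal was fitted as a block (-0.28, SE 0.077, adjusted p = 0.00589). With library totals as the sole scaling, Dusp14 was the single member called, and without the filter on low counts Dusp7 was lost (-0.16, adjusted p = 0.0645).

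Across the 48 striatal animals, some pairs of members varied together after genotype and sex means were removed. Of 36 pairs among the 9 members above 1 CPM, 10 correlated at an adjusted permutation p under 0.05, all 10 positively. The closest were Dusp5 and Dusp6 (Pearson r = 0.782, Spearman rho = 0.797, adjusted permutation p = 0.00018 for both), Dusp6 and Dusp14 (r = 0.740, rho = 0.685) and Dusp1 and Dusp6 (r = 0.733, rho = 0.699). Without the 2 animals farthest from the median these were 0.735, 0.681 and 0.664. Dusp7 and Dusp8 formed a pair at r = 0.591. The pair of Dusp8 and Dusp14 (r = 0.412, adjusted permutation p = 0.0385) was less stable. It did not pass by Spearman rho (adjusted permutation p = 0.112), without the 2 farthest animals (0.065) or on log2 FPKM (0.0813). In cortex 17 of 36 pairs passed, all positive, led by Dusp1 and Dusp6 (r = 0.850), Dusp4 and Dusp5 (r = 0.650) and Dusp5 and Dusp6 (r = 0.628). The values of 1 library share its depth and scaling. The share of other gene pairs that would pass the same test was not computed, so these counts do not set the family apart.

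**Figure D5:**
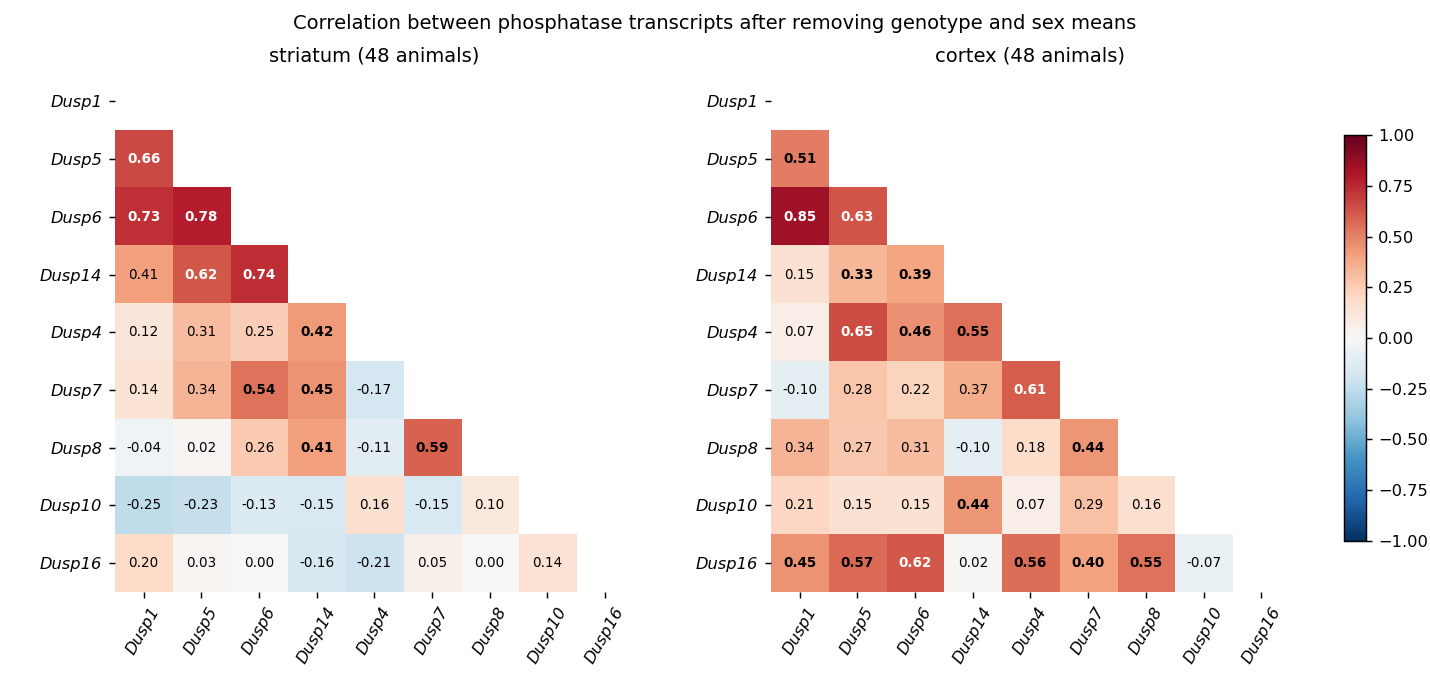
Pearson correlations between members over 48 animals in striatum and in cortex, on log2 CPM with genotype and sex means removed; bold values had an adjusted permutation p under 0.05. In striatum the highest values, 0.782, 0.740 and 0.733, are those of Dusp6 with Dusp5, Dusp14 and Dusp1.

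For each called member the 3 genes with the most similar striatal pattern were taken from 11144 genes averaging 5 CPM or more in 48 libraries. Dusp1 was nearest to the immediate early genes Junb (r = 0.926), Arc (0.902) and Fos (0.878), and Dusp6 to Egr1 (0.933), Nr4a1 (0.911) and Egr2 (0.892). Dusp14 was nearest to the mitochondrial carrier Slc25a25 (0.884), the transcription factor Srf (0.879) and Midn (0.874). Dusp8 was nearest to Sbk1 (0.835), Mllt1 (0.825) and Atxn7l3 (0.818), Dusp7 to Cbx6 (0.734), Usp38 (0.728) and Myh10 (0.707), and Dusp4 to the sorting receptor Sorl1 (0.741), Dbpht2 (0.694) and Dlk2 (0.683). These are descriptions without a test.

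Since Dusp1, Dusp5 and Dusp6 correlated and the neighbours of Dusp8 were other genes, their promoters are shown side by side. The sequences are those of RefSeq on GRCm38.p6, read 5′ to 3′ on the gene's strand from up to 250 bases before the annotated start, without bases inside the gene's own annotated exons. For Dusp1 and Dusp8 the RefSeq start lies inside the longer gene span given above. Capitals mark matches on either strand to the cyclic AMP response element TGACGTCA, its half-site TGACG, and the CArG box, the element bound by serum response factor; the full element contains the half-site on both strands.
Dusp1 (chr17:26508520-26508722, minus strand): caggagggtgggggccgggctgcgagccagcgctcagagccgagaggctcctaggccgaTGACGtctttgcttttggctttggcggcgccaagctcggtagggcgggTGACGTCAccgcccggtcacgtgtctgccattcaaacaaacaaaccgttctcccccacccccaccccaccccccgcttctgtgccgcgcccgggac
Dusp5 (chr19:53528895-53529108, plus strand): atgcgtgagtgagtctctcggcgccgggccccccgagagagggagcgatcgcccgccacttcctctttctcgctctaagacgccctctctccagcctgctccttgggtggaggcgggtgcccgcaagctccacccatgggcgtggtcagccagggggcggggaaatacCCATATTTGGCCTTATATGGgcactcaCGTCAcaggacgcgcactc
Dusp6 (chr10:99262981-99263230, plus strand): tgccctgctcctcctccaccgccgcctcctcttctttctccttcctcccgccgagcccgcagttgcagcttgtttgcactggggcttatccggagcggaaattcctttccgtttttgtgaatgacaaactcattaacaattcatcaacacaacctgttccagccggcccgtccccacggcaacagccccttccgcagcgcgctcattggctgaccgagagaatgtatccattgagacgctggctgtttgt
Dusp8 (chr7:142095285-142095534, minus strand): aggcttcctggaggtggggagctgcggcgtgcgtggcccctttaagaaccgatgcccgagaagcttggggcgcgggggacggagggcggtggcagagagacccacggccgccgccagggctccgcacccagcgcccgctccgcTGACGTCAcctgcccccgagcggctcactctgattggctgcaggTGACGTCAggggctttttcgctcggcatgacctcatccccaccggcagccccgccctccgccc
The Dusp1 stretch holds 1 full element at -143, counted from the start, and a separate half-site at -191. The Dusp5 stretch holds 2 CArG boxes, at -82 and -72, and a half-site at -55. The Dusp8 stretch holds 2 full elements, at -107 and -63, and the Dusp6 stretch holds none of these motifs. The motifs were searched in the whole windows of 250 bases. Of 32851 such promoter windows, 1.55% held the full element, 17.8% a half-site and 1.47% a CArG box. Of the other members with an entry, the window of Dusp16 held a half-site at -70, and those of Dusp2, Dusp7, Dusp10 and Dusp14 held none of the motifs. Only 27 bases of the Dusp14 window lie outside its own exon, so that absence says little about its promoter. The bases just after the Dusp8 and Dusp16 starts matched no GENCODE transcript of the gene as a whole stretch, so their positions rest on the RefSeq start. A match is a description of letters, and binding was not measured.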

How the data were processed

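Read counts per gene and FPKM values were deposited by the authors for all libraries, per the file headers. RNA was total RNA extracted with an RNeasy kit, and libraries followed a TruSeq stranded protocol, per the labels' protocols. STAR 2.7.5c, SAMtools 1.10, HTSeq 0.12.3 and the builds GRCm38 and mm10 are named in the submitters' processing notes; the sources used here give no strand setting and no annotation release. Coordinates are those of the GENCODE vM21 annotation of GRCm38.

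The members and the gene lists were chosen with earlier results of these data known. All 10 members were named. From each pathway list up to 2 of the largest increases and decreases among called genes in striatum, Q140 against wild type, were named, with Fos, Egr1 and Ptpn5 added, and up to 3 most alike genes per called member. Some results on the gene lists are not reported here.

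Differential tests on counts used edgeR 4.0.16 under R 4.3.3 (quasi-likelihood, robust, TMM scaling, genes kept by filterByExpr), in 1 fit per tissue with genotype and sex over 48 libraries, and in 1 fit over all 96 for tissue comparisons. The fit over all 96 had no term for the animal, which was fitted as a block in an alternative. Benjamini-Hochberg adjustment ran over all genes tested, and called means an adjusted p under 0.05. CPM use TMM library sizes of the tissue, or of all 96 libraries in the tissue comparison. Alternatives were DESeq2 1.42.0, limma 3.58.1 on log2(FPKM + 0.1), other scalings, filters and covariates, and left-out animals. Correlations used deviations of log2 CPM (prior count 2) from genotype and sex means. Animals were permuted 100000 times within genotype and sex, in two-sided tests. The smallest p this gives is 1e-05. The scripts were tested on simulated data. Animals are named by the codes of the labels. Both tissues carry the same codes because they come from the same animal; deviations of paired libraries correlated with a median of 0.115 over 48 pairs, and 42 of 48 correlated best with their own animal. Within a tissue, the p-values set a difference against the spread between mice. In the tissue comparisons they set it against the spread between libraries. Animals sharing a first code number were correlated at 0.133 in striatum and 0.131 in cortex, which the main fits did not model. Dusp4 had no promoter entry, and the Dusp14 window lies mostly in its own exon and is not printed.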

Additional observations from a re-analysis of the deposited data

Results flagged for a closer look

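Of 120 groups of 8 animals looked at, 5 held an animal far above the other 7, and chance gives about 1 in 20. The 27-3 female had the highest striatal Dusp14 of the Q140 X Pms1-/- animals, 65.3 CPM with 33.0 CPM in the next, and also the highest Dusp6, 66.7 CPM with 44.4 CPM in the next. The 22-2 female had the highest striatal Dusp14 of the Pms1-/- animals, 74.8 CPM with 53.1 CPM in the next. The 8-1 male had the highest striatal Dusp10 of the Q140 X Pms1+/- animals, 5.04 CPM with 3.59 CPM in the next. The 6-2 male had the highest cortical Dusp5 of the Pms1+/- animals, 27.0 CPM with 22.8 CPM in the next.

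The Q140 effect differed between striatum and cortex for 3 members in edgeR's test of that difference, by -1.08 for Dusp14, -0.17 for Dusp8 and -0.17 for Dusp7 (log2, striatum minus cortex). That test had no term for the animal. With the animal fitted as a block, Dusp6 was called as well (-0.28, adjusted p = 0.00589, edgeR).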

How the results depend on the processing

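No called fold change of a member changed direction under the alternatives run; those of members that were not called were followed only under the splits by sex or code, the blocks and the left-out choroid libraries. Among them striatal Dusp4 had opposite signs in the separate fits of the sexes. For Q140 X Pms1+/- against Pms1+/- (-0.14 in all animals) it was 0.22 in females and -0.55 in males. The Pms1+/- interaction gave 1.09 (adjusted p = 0.0496, edgeR) in females and -0.36 in males. The Pms1-/- interaction gave 0.94 (adjusted p = 0.006, edgeR) in females and -0.30 in males. Whether the sexes differ was not tested for these comparisons. The 6 members lower in Q140 striatum were also 6 with each animal left out, and became 3 in males alone. In striatum, Q140 X Pms1+/- against Pms1+/- (6 called) gave 0 in females, 1 in males and 3 with library totals as the sole scaling, and lost Dusp1 (adjusted p = 0.0573) and Dusp6 (0.0748) without the filter on low counts. Q140 X Pms1-/- against Pms1-/- (2 called) gave 4 with DESeq2, 0 in males or without the filter on low counts, and 1 in females, with library totals as the sole scaling, without the sex term or with a fit of those groups alone; leaving out 1 animal gave 0 to 4, with 0 without Q140 X Pms1-/- 18-1, 43-1 or 43-5, where Dusp14 and Dusp10 were both lost. There Dusp14 was also lost without Pms1-/- 22-2 or Q140 X Pms1-/- 28-4 (adjusted p over its lost fits 0.0525 to 0.0842, edgeR), and Dusp10 without Pms1-/- 22-1, 43-3, 44-2 or 44-3 or Q140 X Pms1-/- 17-2, 27-3 or 44-1 (0.0545 to 0.0936). Pms1-/- against wild type (2 called) gave 0 in males and 1 in females, without the filter, with the first code number as a random block, or with the code term; leaving out 1 animal gave 1 to 2, Dusp14 being lost without Pms1-/- 22-1, 22-3, 26-5 or 43-3 or wild-type 11-2, 12-4 or 27-5 (0.0515 to 0.0834). Q140 X Pms1-/- against Q140 (0 called) gave 1 in females, with limma on FPKM and with library totals; leaving out 1 animal gave 0 to 1, Dusp10 being called without Q140 X Pms1-/- 28-4. The Pms1-/- interaction (0 called) gave 2 in females and 1 with DESeq2, limma on FPKM, library totals or the code term, and the Pms1+/- interaction (0 called) gave 1 in females, Dusp4.

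In cortex, Pms1-/- against wild type (4 called) gave 1 in females, 0 in males and 1 with the code term; leaving out 1 animal gave 2 to 4, Dusp4 being lost without Pms1-/- 43-3 or 44-3 or wild-type 12-4 (adjusted p 0.0502 to 0.0545, edgeR) and Dusp6 without Pms1-/- 22-3, 43-3, 44-2 or 44-3 or wild-type 12-4 or 14-4 (0.0553 to 0.0757). Q140 against wild type (0 called) gave 2 when averaged over the 3 Pms1 backgrounds, and Q140 X Pms1-/- against Q140 (0 called) gave 1 with DESeq2. The tissue difference (3 called) gave 1 with library totals as the sole scaling and 4 with the animal as a replicate block, which added Dusp6 and changed no other member's call there or between wild-type tissues. Sex-specific fits hold fewer animals; the cause of the other changes was not tested. Dusp2 lay under 1 CPM, so its counts were low.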
